A study of Homo sapiens with 12 samples.

Results

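Imprinted genes are expressed from only one parental copy, and many of them set the pace of fetal and tissue growth. The data here describe 8 genes of this kind or tied to them, IGF2, IGF2R, PEG10, SGCE, MEST, CDKN1C, GRB10 and PLAGL1, out of 17303 genes in the deposited table. They were taken by gene symbol, and the choice was made because IGF2 and PEG10 were low with 1 of the hairpins, SKA2 hairpin 2. Values of the 8 genes in comparisons with hairpin 2 are therefore given as a description with no test. All 8 were found, and 8 of 8 passed the expression filter, which asked for at least 0.649 CPM (counts scaled to the library total) in 3 or more of the 12 libraries. IGF2 passed without hairpin 2, where it reached that level in 0 of 3 libraries, and PEG10 reached it in 1 of 3 there. SGCE passed on 2 control libraries and 1 hairpin 1 library. PLAGL1 passed on 3 hairpin 2, 2 hairpin 1 and 1 control library.

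Bulk RNA-seq libraries were made from SNU638, a cell line established from a human gastric carcinoma, and carry genotype labels of SKA2 knockdown or wt. Stable lines were made with lentivirus and puromycin: 3 lines carried SKA2 hairpins 1, 2 and 3, and 1 line carried a control hairpin, with 3 libraries per line. Every line, the control included, had been through infection and drug selection. Each hairpin is 1 line, so a difference between hairpins and a difference between lines cannot be told apart, and in bulk RNA fewer expressing cells cannot be told apart from less RNA per cell.

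IGF2 is a secreted growth factor that acts through IGF1R and the insulin receptor INSR, whereas IGF2R binds IGF2 and carries it to lysosomes for destruction. GRB10 is an adaptor that dampens signalling from those receptors, CDKN1C inhibits cyclin-dependent kinases, and PLAGL1 is a zinc finger transcription factor that regulates other imprinted genes. PEG10 is a retrotransposon-derived gene whose neighbour SGCE encodes epsilon-sarcoglycan, and MEST encodes a protein of the alpha/beta hydrolase fold. IGF2, PEG10, SGCE, MEST and PLAGL1 are known for expression from the paternal copy and CDKN1C from the maternal copy. Imprinting of GRB10 depends on tissue, and that of IGF2R is clear in mouse and variable in human. The counts do not separate the parental copies.

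SKA2, the targeted gene, averaged 24.0 ± 1.86 CPM with hairpin 1, 25.2 ± 1.93 with hairpin 2 and 26.6 ± 1.56 with hairpin 3, against 120 ± 4.84 CPM with the control hairpin (SD, n = 3 each). Library totals ran between 1.47e+07 and 1.67e+07 expected counts. Epithelial markers were uneven. On average over the 12 libraries KRT8 was at 889 CPM, KRT18 at 724, KRT19 at 328 and EPCAM at 238. CDH1 averaged 5.76 CPM, MUC1 1.42 and CLDN4 0.567. The stomach genes CLDN18 and MUC5AC averaged 0.0917 and 0.129 CPM, and TFF1 was at 0 in 11 of 12. By CPM the 13 gastric and epithelial markers in the table were nearly all KRT8, KRT18, KRT19 and EPCAM. They summed to between 2264 and 2347 CPM with hairpin 1, between 1097 and 1136 with hairpin 2, between 2073 and 2783 with hairpin 3 and between 2657 and 3751 CPM in the control. With hairpin 2, 7 of 10 tested were called lower and 2 higher, where 37.8% of all tested genes were called lower and 36.6% higher. The 2 were ELF3 and GATA6, at log2 fold changes of 1.18 and 1.05. CDH1 was at 0.92, -1.04 and 0.74 with hairpins 1, 2 and 3. Of other cell types, DCN was at 0 in 11 of 12 libraries, KDR in 11 and PTPRC in 8. The 11 fibroblast and smooth muscle markers, nearly all TAGLN, ACTA2 and COL1A1, summed to between 60.9 and 86.5 CPM over the 9 knockdown libraries and between 63.8 and 90.4 CPM in the control. The 8 blood cell markers, nearly all CD68, summed to between 11.1 and 13.7 CPM with hairpin 2, between 20.8 and 26.1 CPM over the libraries of hairpins 1 and 3, and between 23.9 and 29.5 CPM in the control. The 8 endothelial markers, mostly ESAM, summed to between 5.21 and 5.80 CPM with hairpin 2, between 6.86 and 10.4 CPM over the libraries of hairpins 1 and 3, and between 13.9 and 15.6 CPM in the control. The part of these markers in the results below was not tested.

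Libraries also differed in how counts depended on transcript length. For each library the log2 CPM of 12134 genes, relative to their mean over all libraries, was regressed on log2 effective length. The slope was between 0.0823 and 0.107 with hairpin 1, and between 0.156 and 0.210 with hairpin 2. With hairpin 3 it was 0.0923, -0.124 and -0.173, and in the control it was -0.0558, -0.245 and -0.327. Long transcripts were thus counted relatively higher in every hairpin 1 and hairpin 2 library than in any control library, while hairpin 3 overlapped the control. The first library stood apart from the other two in both the hairpin 3 line and the control line. The effective length was 13784 bp for IGF2R, longer than 99.4% of tested genes, 6306 bp for PEG10, 4843 bp for GRB10 and 4241 bp for IGF2, against 2890 bp for PLAGL1, 2161 bp for MEST, 1715 bp for SGCE and 1397 bp for CDKN1C. The median over tested genes was 2873 bp. Values with this trend taken out as an offset are given beside results whose call or direction it changes, and beside its larger shifts among the 8 genes.

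IGF2, the ligand, spans bases 2129112 to 2158658 of chromosome 11, minus strand (Entrez 3481; positions here and below are those of GENCODE v29 on GRCh38). Its expected counts were 99, 102 and 110 with hairpin 1, 2, 1 and 0 with hairpin 2, 62, 67 and 65 with hairpin 3, and 88, 118 and 101 with the control hairpin. Hairpin 2 libraries were all far below the other 9, hairpin 3 libraries lay below every hairpin 1 and control library, and hairpin 1 and control libraries overlapped. Summed over 3 libraries and set against library totals, IGF2 with hairpin 2 stood at 1.07% of the control (3 against 307 counts; exact 95% interval 0.219% to 3.15%), at 0.980% of hairpin 1 (0.201% to 2.89%) and at 1.61% of hairpin 3 (0.330% to 4.79%). The reads of 3 libraries were pooled, so these intervals leave out the spread between libraries. The reads carry no molecular identifiers, so counts of reads are not counts of molecules, and the intervals may be too narrow. IGF2 was chosen for being low with hairpin 2, so the intervals are a description and no test of the fall.

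With hairpin 3, which the choice of genes did not use, IGF2 averaged 4.13 ± 0.104 CPM against 6.55 ± 1.03 CPM in the control (SD, n = 3 each). It fell by 0.66 ± 0.16 on the log2 scale (SE; adjusted p = 0.00573, edgeR quasi-likelihood test with Benjamini-Hochberg adjustment over 12868 genes). With hairpin 1 it averaged 6.68 ± 0.261 CPM, a log2 fold change of 0.031 ± 0.15 against the control (edgeR adjusted p = 0.869), and this value was -0.22 with the length offset and 0.30, called, in the limma fit to log2(TPM + 1), a scale on which all genes had a median of 0.29. The IGF2 locus also holds INS-IGF2 on the same strand and IGF2-AS on the other. Neither is among the genes with deposited values, and no strand-marking step is named in the library protocol. Their reads could therefore not be told apart from those of IGF2.

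**Figure D1:**
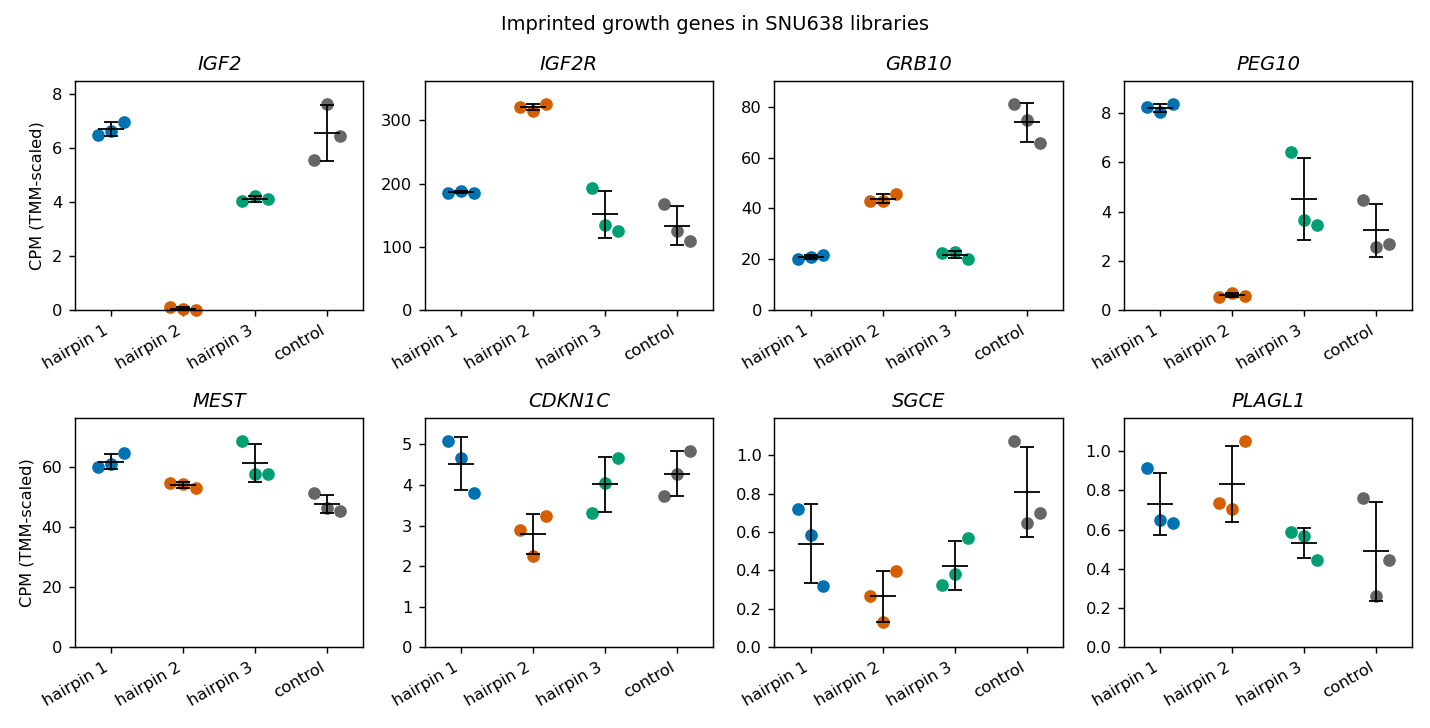
CPM (TMM-scaled, linear axis from 0) of the 8 genes in each library, with 1 panel per gene and dots for the 3 libraries of hairpin 1, hairpin 2, hairpin 3 and control. Black marks are the group mean ± SD; IGF2 sits at 0 to 0.134 CPM in the hairpin 2 libraries, and the first hairpin 3 and first control libraries are the highest of their groups in IGF2R, PEG10 and MEST.

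PEG10 spans bases 94656325 to 94669695 of chromosome 7, plus strand (Entrez 23089), head to head with SGCE. Its expected counts were 126, 124 and 132 with hairpin 1, 8, 11 and 9 with hairpin 2, 99, 58 and 55 with hairpin 3, and 71, 40 and 42 with the control hairpin. Hairpin 2 was lowest and hairpin 1 highest in every library, and hairpin 3 and the control overlapped. In summed counts PEG10 with hairpin 2 stood at 20.0% of the control (28 against 153 counts; 95% interval 12.8% to 30.02%), at 7.44% of hairpin 1 and at 13.8% of hairpin 3. The interval pools reads in the same way and is no test, since PEG10 was also chosen for being low there. The fitted log2 fold change of hairpin 2 over the control was -2.39 ± 0.36 (SE), and -2.98 with the length offset.

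The same gene rose with hairpin 1, where it averaged 8.21 ± 0.163 CPM against 3.25 ± 1.08 CPM in the control, a log2 fold change of 1.33 ± 0.24 (edgeR adjusted p = 0.000822). The length offset gave 0.87, and the call held in all 20 alternatives. With hairpin 3 it averaged 4.53 ± 1.66 CPM, a log2 fold change of 0.47 ± 0.26 that did not pass (edgeR adjusted p = 0.149), and 0.24 with the length offset. Within the replicate number the 3 hairpin 3 libraries were each above their control partner, and a fit of these 2 groups with the replicate number as a block called the change at 0.48 ± 0.17 (edgeR adjusted p = 0.00902). Without the first control library it passed at 0.78 (edgeR adjusted p = 0.0210).

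SGCE, bases 94524204 to 94656572 of the minus strand, was barely counted. It had 11, 9 and 5 expected counts with hairpin 1, 4, 2 and 6 with hairpin 2, 5, 6 and 9 with hairpin 3, and 17, 10 and 11 with the control hairpin. Every hairpin 2 and hairpin 3 library was below every control library, whereas hairpin 1 overlapped the control. The log2 fold change was -0.58 ± 0.37 with hairpin 1 (edgeR adjusted p = 0.192), -0.91 ± 0.39 with hairpin 3 (edgeR adjusted p = 0.0730), and -1.59 ± 0.44 with hairpin 2, given with no test. The length offset made these -0.34, -0.79 and -1.25. At these counts smaller differences were not detectable. SGCE also overlaps CASD1, and its first exon region overlaps that of PEG10 on the other strand.

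GRB10, the adaptor that restrains insulin and IGF receptor signalling, had the largest log2 fold change of the 8 genes with hairpin 1 and with hairpin 3. The gene spans bases 50590063 to 50793462 of chromosome 7, minus strand (Entrez 2887). Expected counts were 309, 325 and 340 with hairpin 1, 639, 666 and 696 with hairpin 2, 346, 361 and 321 with hairpin 3, and 1280, 1155 and 1029 with the control hairpin. All 9 knockdown libraries were below all 3 control libraries, and hairpin 2 libraries lay between. GRB10 fell to 20.9 ± 0.699 CPM with hairpin 1 and 21.9 ± 1.38 CPM with hairpin 3, against 73.8 ± 7.74 CPM in the control (SD, n = 3 each). The log2 fold changes were -1.82 ± 0.09 with hairpin 1 (edgeR adjusted p = 3.35e-08) and -1.75 ± 0.09 with hairpin 3 (edgeR adjusted p = 4.51e-08). With hairpin 2 it was 43.8 ± 1.73 CPM, a log2 fold change of -0.75 that became -1.15 with the length offset. Over all alternatives the values ran between -2.14 and -1.34 with hairpin 1 and between -1.91 and -1.48 with hairpin 3, every one of them called.

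IGF2R had higher counts with hairpins 1 and 2 than in the control, and lower values with hairpins 1 and 3 than in the control once the length trend was taken out. At 13784 bp its offset is read at the far end of that trend, where few genes are as long. The offset would also take out a hairpin effect on long transcripts, and with hairpins 1 and 2 these cannot be told apart. The gene spans bases 159969099 to 160113507 of chromosome 6, plus strand (Entrez 3482). Expected counts were 2844, 2906 and 2914 with hairpin 1, 4775, 4901 and 4940 with hairpin 2, 2978, 2140 and 1978 with hairpin 3, and 2649, 1926 and 1704 with the control hairpin. Hairpin 2 and hairpin 1 libraries were above all control libraries, and hairpin 3 overlapped both hairpin 1 and the control. Within the hairpin 3 line and within the control line, the library with the higher length slope held more IGF2R. In hairpin 3 it was 194, 135 and 125 CPM at slopes of 0.0923, -0.124 and -0.173, and in the control it was 168, 124 and 109 CPM at slopes of -0.0558, -0.245 and -0.327. The hairpin 1 libraries, at slopes close to that of the first hairpin 3 library, held 185 to 188 CPM. The log2 fold change was 0.48 ± 0.17 with hairpin 1 (edgeR adjusted p = 0.0256), a call lost in 5 of 20 alternatives, among them those without the second or the third control library (adjusted p = 0.0855 and 0.102) and without each hairpin 1 library in turn (0.0560, 0.0622 and 0.0555). With the length offset it reversed to -0.39 and was called lower (edgeR adjusted p = 1.95e-05). With hairpin 3 it was 0.18 ± 0.17 (edgeR adjusted p = 0.395), -0.24 with the length offset, again called lower (edgeR adjusted p = 0.000784). Without the first hairpin 3 library it was -0.036, and without the first control library it passed at 0.38 (edgeR adjusted p = 0.0481). The blocked fit on the 2 groups called the hairpin 3 change at 0.18 ± 0.04 (edgeR adjusted p = 0.000231). The hairpin 2 value, with no test, was 1.26 ± 0.17, and 0.16 with the length offset.

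Among the 8 genes GRB10 had the largest tested fall and IGF2R reversed under the length offset, and their start regions are shown for that reason. The 250 bases before 1 transcript start of each gene are printed 5′ to 3′ on the strand of the gene, from RefSeq (GRCh38.p14). CpG dinucleotides are in capitals. The GRB10 window is chr7:50793454-50793703, minus strand, and the IGF2R window is chr6:159968832-159969081, plus strand.
GRB10: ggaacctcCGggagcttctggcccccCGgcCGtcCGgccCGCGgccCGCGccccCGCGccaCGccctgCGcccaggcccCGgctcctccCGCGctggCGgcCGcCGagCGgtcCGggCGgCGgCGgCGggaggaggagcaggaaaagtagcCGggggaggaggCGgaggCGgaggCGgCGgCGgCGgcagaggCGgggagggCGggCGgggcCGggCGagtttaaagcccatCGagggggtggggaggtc
IGF2R: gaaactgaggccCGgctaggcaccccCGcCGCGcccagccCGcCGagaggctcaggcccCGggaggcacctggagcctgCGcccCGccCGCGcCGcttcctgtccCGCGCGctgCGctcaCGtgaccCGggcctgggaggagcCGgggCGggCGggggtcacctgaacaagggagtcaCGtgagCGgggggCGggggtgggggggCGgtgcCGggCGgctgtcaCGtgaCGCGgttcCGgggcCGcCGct
The printed GRB10 window, the furthest upstream of those for this gene, held 37 CpG, at or above 96.7% of 35116 such windows. Other GRB10 windows, at starts further downstream, held 40, 19, 2 and 3 CpG. The IGF2R window held 33, at or above 93.2%. Whether a printed window lies in an imprinted region was not examined. The E-box CACGTG, searched on both strands, was found 3 times in the IGF2R window, and 0.0797% of all windows hold 3 or more while 6.34% hold at least 1. It was found 0 times in the GRB10 window. GGGGCCCC, the core of the sequence known for binding by PLAGL1, was in neither, and 1.77% of windows hold it. The table had entries for 4 of the 8 genes, with 16 windows in all. A match describes letters only, and no match says nothing of the factors.

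**Figure D2:**
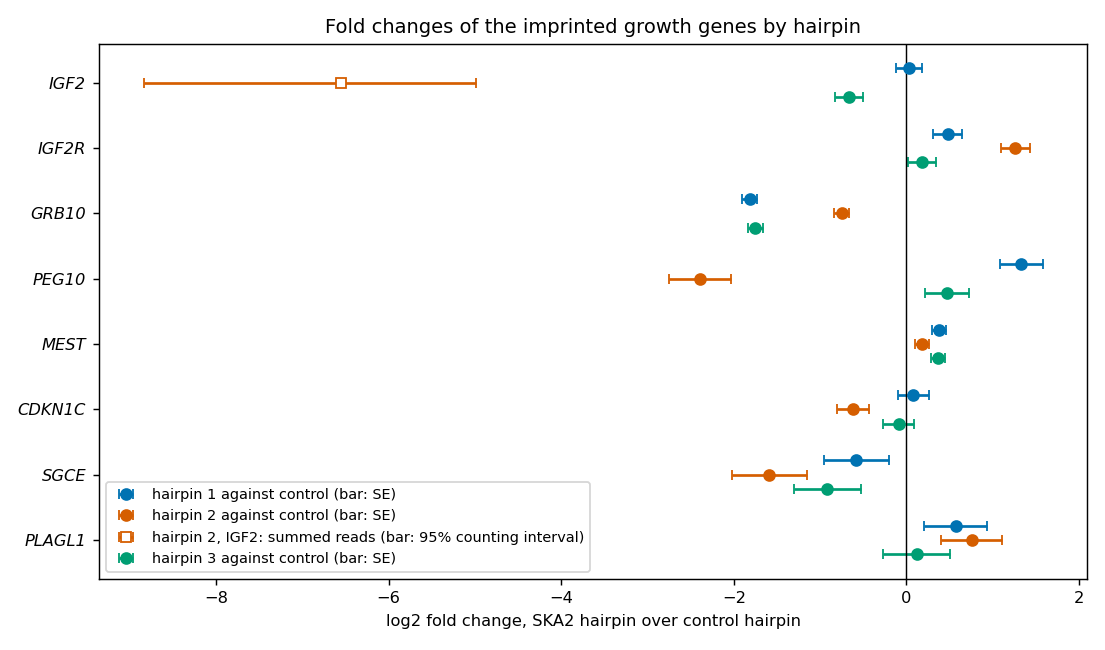
log2 fold change of each SKA2 hairpin over the control hairpin for the 8 genes (edgeR fit on 12 libraries; bars are SE), with IGF2 under hairpin 2 drawn from summed counts and its 95% counting interval. GRB10 lies left of 0 with each hairpin and MEST right of 0, whereas PEG10 lies at 1.33 with hairpin 1 and at -2.39 with hairpin 2.

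MEST spans bases 130486171 to 130506465 of chromosome 7, plus strand (Entrez 4232). It had 916, 937 and 1018 expected counts with hairpin 1, 815, 846 and 803 with hairpin 2, 1056, 911 and 910 with hairpin 3, and 808, 718 and 711 with the control hairpin. In CPM all 9 knockdown libraries were above all 3 control libraries, by a small margin. MEST rose with hairpin 1, at 61.7 ± 2.49 CPM, and with hairpin 3, at 61.3 ± 6.41 CPM, against 47.6 ± 3.10 CPM in the control. The log2 fold changes were 0.37 ± 0.08 with hairpin 1 (edgeR adjusted p = 0.00238) and 0.36 ± 0.08 with hairpin 3 (edgeR adjusted p = 0.00400). Both calls held in all alternatives, between 0.34 and 0.74 with hairpin 1 and between 0.27 and 0.51 with hairpin 3. The hairpin 2 value was 0.18 ± 0.08, and 0.39 with the length offset. The 3′ end of MEST overlaps that of COPG2 on the other strand; COPG2 had 43.5 ± 2.17 CPM with hairpin 1, 46.6 ± 5.59 with hairpin 2 and 42.2 ± 1.48 with hairpin 3, against 42.6 ± 0.690 CPM in the control.

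CDKN1C, the cyclin-dependent kinase inhibitor, spans bases 2883213 to 2885773 of chromosome 11, minus strand (Entrez 1028). It had 78, 72 and 60 expected counts with hairpin 1, 43, 35 and 49 with hairpin 2, 51, 64 and 74 with hairpin 3, and 59, 66 and 76 with the control hairpin. The hairpin 2 libraries were below all others, and the remaining groups overlapped. The log2 fold change was 0.078 ± 0.18 with hairpin 1 (edgeR adjusted p = 0.719), and with the length offset 0.40 (edgeR adjusted p = 0.0360). It was -0.092 ± 0.18 with hairpin 3 (edgeR adjusted p = 0.697), and -0.62 ± 0.19 with hairpin 2, or -0.17 with the length offset. PLAGL1, bases 143940300 to 144064599 of chromosome 6, minus strand (Entrez 5325), had 14, 10 and 10 expected counts with hairpin 1, 11, 11 and 16 with hairpin 2, 9, 9 and 7 with hairpin 3, and 12, 4 and 7 with the control hairpin. Each knockdown group overlapped the control in CPM. Its log2 fold change was 0.57 ± 0.36 with hairpin 1 (edgeR adjusted p = 0.186), which passed without the first control library at 1.03 (edgeR adjusted p = 0.0402), and 0.12 ± 0.39 with hairpin 3 (edgeR adjusted p = 0.829). The hairpin 2 value was 0.76 ± 0.35.

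Counted together, 3 of the 8 genes rose and 1 fell with hairpin 1, where 31.5% of all tested genes were called higher and 31.5% lower. With hairpin 3, 1 rose and 2 fell, where 23.6% of all tested genes were called higher and 24.0% lower. The median log2 fold change of the 8 was 0.23 with hairpin 1 and 0.013 with hairpin 3, against 0.0059 and 0.0086 over all tested genes. The comparisons with hairpins 1, 2 and 3 share the control libraries. With hairpin 2, 36.6% of all tested genes were called higher and 37.8% lower; the 8 genes were chosen on that comparison.

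The lines with hairpins 3 and 1 differed in IGF2 and PEG10. Means of control and hairpin 2 libraries do not enter this comparison, but the estimate of spread comes from all 12 libraries. Of the 8 genes 0 were higher and 2 lower with hairpin 3, where 4.75% of all tested genes were called higher and 4.70% lower. IGF2 averaged 4.13 ± 0.104 CPM with hairpin 3 and 6.68 ± 0.261 CPM with hairpin 1, a log2 fold change of -0.70 ± 0.16 (edgeR adjusted p = 0.0255), with all 3 libraries lower. PEG10 averaged 4.53 ± 1.66 CPM with hairpin 3 and 8.21 ± 0.163 CPM with hairpin 1, a log2 fold change of -0.86 ± 0.23 (edgeR adjusted p = 0.0432), also with all 3 libraries lower. Neither call held in all alternatives: IGF2 lost its call in 5 of 20 alternatives, with edgeR adjusted p up to 0.0956, and PEG10 in 10, with edgeR adjusted p up to 0.170. The PEG10 losses included the fits without any 1 hairpin 2 library or the second control library, and that of the 2 groups alone. GRB10 and MEST did not pass, at 0.063 ± 0.09 (edgeR adjusted p = 0.639) and -0.011 ± 0.08 (edgeR adjusted p = 0.936). In length slope the first hairpin 3 library lay within the range of hairpin 1 and the other 2 hairpin 3 libraries lay below it, and PEG10 without the first hairpin 3 library was -1.18. With the length offset IGF2 was -0.57 and PEG10 -0.63, both called, and GRB10 passed at 0.23 (edgeR adjusted p = 0.0461).

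Levels can be set between genes only per length, in TPM (abundance scaled to transcript length and library). MEST was highest of the 8 by mean, at 53.3 ± 1.82 TPM with hairpin 1, 48.5 ± 0.839 with hairpin 2, 45.9 ± 9.60 with hairpin 3 and 31.9 ± 6.17 TPM in the control (SD, n = 3 each). IGF2R was next with each SKA2 hairpin, at 25.2 ± 0.569 TPM with hairpin 1, 45.2 ± 2.13 with hairpin 2 and 17.9 ± 6.30 with hairpin 3, and below GRB10 by mean in the control, at 14.2 ± 5.09 TPM. With hairpin 2 the libraries of MEST and IGF2R overlapped. GRB10 was at 8.04 ± 0.318 TPM with hairpin 1, 17.5 ± 1.27 with hairpin 2, 7.26 ± 1.06 with hairpin 3 and 22.3 ± 5.001 in the control. In the control the libraries of MEST and GRB10 overlapped in TPM, and so did those of GRB10 and IGF2R. CDKN1C came next, between 3.92 and 6.03 TPM as group means. IGF2 was at 2.94 ± 0.100 TPM with hairpin 1, 0.0300 ± 0.0300 with hairpin 2, 1.56 ± 0.135 with hairpin 3 and 2.20 ± 0.274 in the control, so the receptor that clears the ligand exceeded the ligand in TPM in every library. PEG10 ranged between 0.190 and 2.44 TPM, SGCE between 0.277 and 0.717, and PLAGL1 between 0.250 and 0.563 as group means. In the control PEG10 and SGCE overlapped.

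By Pearson correlation of log2 CPM over the 12 libraries, which come from only 4 lines, the genes most like IGF2 were ORC6 (r = 0.993), RHOA (0.992), CENPN (0.992), SORD (0.991) and MTHFD1 (0.991). ORC6 is a subunit of the origin recognition complex and averaged 62.2 CPM with hairpin 1, 24.6 with hairpin 2 and 58.7 with hairpin 3, against 61.2 in the control. Among the genes most like PEG10 were B4GALT6 (r = 0.990), MCFD2 (0.987), GEM (0.987) and BRI3BP (0.985). IGF2 itself averaged 6.68, 0.0662 and 4.13 CPM with hairpins 1, 2 and 3, against 6.55 in the control. The 12 libraries include those of hairpin 2, on which IGF2 and PEG10 were chosen for being low. A high r can therefore come from low values there, and it does not mean a change of like size. These are descriptions of 4 groups of libraries, and no p was computed.

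The IGF pathway list held 26 genes, 22 of them in the table and 14 tested. With hairpin 1, 4 rose and 4 fell, with a median log2 fold change of 0.11 against 0.0059 over all tested genes. With hairpin 2, 3 rose and 6 fell, with a median of -0.12 against -0.017, and with hairpin 3, 2 rose and 3 fell, with a median of -0.21 against 0.0086. Of all tested genes 31.5%, 36.6% and 23.6% were called higher with hairpins 1, 2 and 3, and 31.5%, 37.8% and 24.0% lower. For hairpin 3 the blocked fit on the 2 groups called 5 higher and 5 lower, where it called 35.9% of its 12492 genes higher and 35.5% lower. Of the binding proteins that hold IGFs outside the cell, 4 were tested, and 2 of them, IGFBP2 and IGFBP4, fell with each hairpin. IGFBP2 averaged 4.18 ± 0.687 CPM with hairpin 1, 1.10 ± 0.0232 with hairpin 2 and 4.31 ± 0.775 with hairpin 3, against 8.31 ± 0.984 in the control, and its log2 changes were -0.99, -2.91 and -0.94 (edgeR adjusted p = 0.000344, 1.41e-07 and 0.000558). IGFBP4 averaged 44.0 ± 1.16 CPM with hairpin 1, 20.4 ± 1.52 with hairpin 2 and 54.8 ± 9.85 with hairpin 3, against 114 ± 20.0 in the control, at -1.37, -2.48 and -1.05 on the log2 scale (edgeR adjusted p = 2.12e-05, 8.43e-08 and 0.000140). IGFBP6 fell with hairpins 1 and 2 (-0.49 and -2.50; edgeR adjusted p = 0.0274 and 4.02e-07) and was at -0.35 with hairpin 3 (edgeR adjusted p = 0.118). IGFBP3, at 0.385 CPM over all libraries, fell with hairpin 2, where it was near 0 (edgeR adjusted p = 0.000473) and was at 0.31 with hairpin 1 and -0.98 with hairpin 3 (edgeR adjusted p = 0.516 and 0.112). IGFBP3 and IGFBP6 were named after their values were seen. STC1, a secreted inhibitor of the pappalysins that cut IGF-binding proteins, fell with hairpin 1 (-0.82) and hairpin 2 (-1.48), while its hairpin 3 value was -0.19 (edgeR adjusted p = 0.0773). It was called lower with hairpin 3 in the blocked fit (-0.19, edgeR adjusted p = 8.98e-05), with the length offset (-0.27), and without the third control library (-0.27) or the first hairpin 3 library (-0.25).

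The receptors and docking proteins are long transcripts, between 7880 and 9506 bp in effective length, and the length offset lowered their values. Every hairpin 1 and hairpin 2 library had a higher length slope than any control library. For these hairpins the length trend and a hairpin effect on long transcripts therefore cannot be told apart. IGF1R, the signalling receptor for IGFs, averaged 47.8 ± 2.47 CPM with hairpin 1, 74.5 ± 0.919 with hairpin 2 and 41.0 ± 5.14 with hairpin 3, against 37.2 ± 5.42 CPM in the control. Its log2 fold changes were 0.36 (edgeR adjusted p = 0.0138), 1.00 (edgeR adjusted p = 7.75e-06) and 0.14 (edgeR adjusted p = 0.310), and -0.34, 0.12 and -0.19 with the length offset. The hairpin 1 call of IGF1R was lost without the third control library (0.26) or the second hairpin 1 library (0.30), and the blocked fit called IGF1R higher with hairpin 3 (0.15, edgeR adjusted p = 0.0365). INSR was at 0.44 with hairpin 1 (edgeR adjusted p = 0.00778), and 0.24 and 0.15 with hairpins 2 and 3 without a call; with the length offset it was -0.24, -0.62 and -0.17. The blocked fit called INSR higher with hairpin 3 (0.16, edgeR adjusted p = 0.0189), and the replicate block in the fit of 12 libraries called it with hairpin 2 (0.25, edgeR adjusted p = 0.0341). IRS1, a docking protein for both receptors, rose with each hairpin, by 1.06, 0.81 and 0.52 (edgeR adjusted p = 0.000261, 0.000644 and 0.0184). With the length offset it was 0.38, -0.053 and 0.20, still called higher with hairpins 1 and 3 (edgeR adjusted p = 0.000110 and 0.00923). The hairpin 3 call of IRS1 was lost without the second or the third control library or the first hairpin 3 library, at 0.36 to 0.49, and in the fit of the 2 groups alone (0.53). IRS2, at about 1 CPM, was at 0.014, 0.31 and -0.23 with hairpins 1, 2 and 3, with no call.

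Among the mRNA-binding proteins named for IGF2 mRNA, IGF2BP3 rose with each hairpin. It averaged 136 ± 7.78 CPM with hairpin 1, 80.4 ± 3.71 with hairpin 2 and 99.9 ± 33.3 with hairpin 3, against 45.3 ± 24.2 CPM in the control. The log2 fold changes were 1.59 ± 0.31, 0.83 ± 0.31 and 1.14 ± 0.31 (edgeR adjusted p = 0.00124, 0.0293 and 0.0108). Its hairpin 2 call was lost without the second or the third control library or the second or the third hairpin 2 library, at 0.54 to 0.83. Its hairpin 3 call was lost in the fit of the 2 groups alone (1.14, edgeR adjusted p = 0.0693). IGF2BP2 fell with hairpin 3 (-0.57, edgeR adjusted p = 0.00193) and was at -0.21 and 0.025 with hairpins 1 and 2 without a call; the log2(TPM + 1) fit lost the hairpin 3 call (-0.38), and the length offset called hairpin 1 (-0.30). IGF2BP1, at 1.16 CPM over all libraries, was at 0.21, -0.26 and 0.72, with no call in the fit of 12 libraries. The blocked fit called its hairpin 3 value (0.72, edgeR adjusted p = 0.0178), and the length offset its hairpin 2 value (-1.06, edgeR adjusted p = 0.0487).

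**Figure D3:**
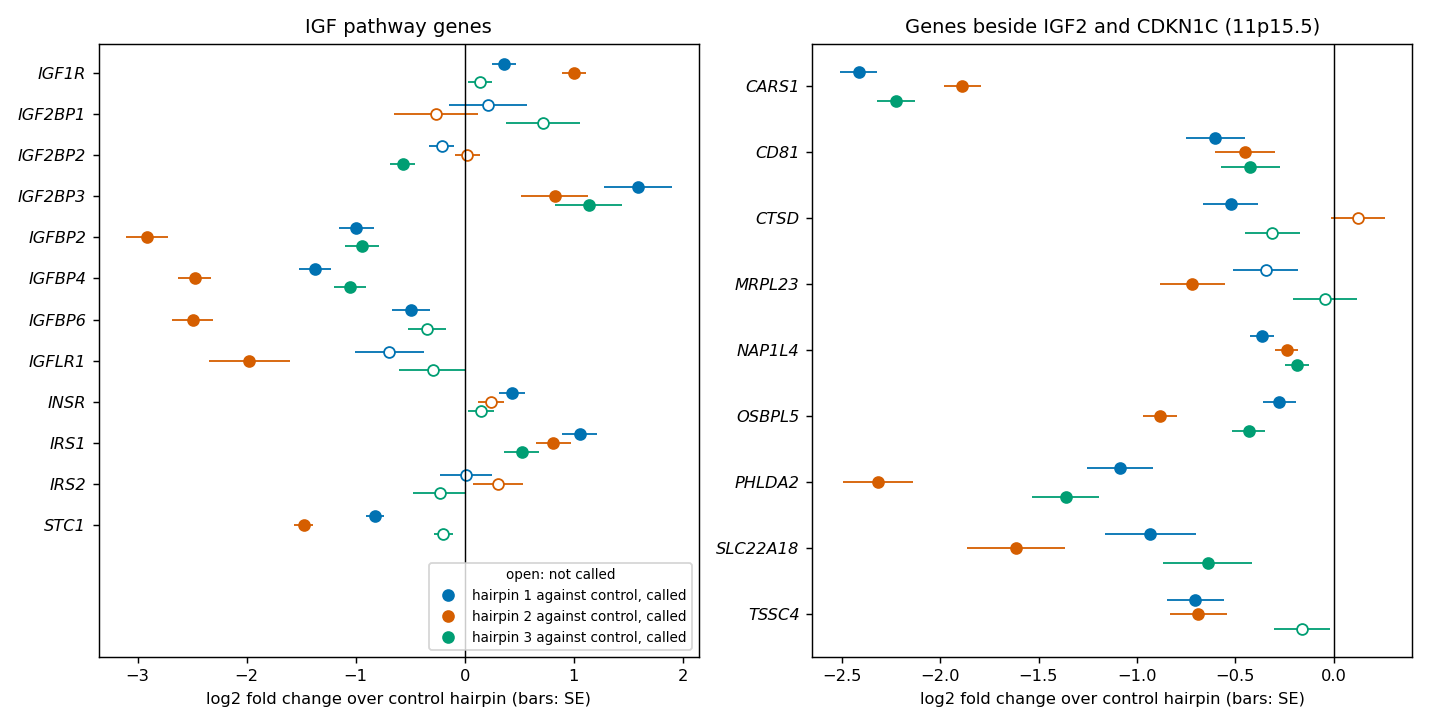
log2 fold change of each SKA2 hairpin over the control hairpin (edgeR; bars are SE) for tested genes with at least 1 CPM on average, in the IGF pathway list (left) and beside IGF2 and CDKN1C on 11p15.5 (right); filled points passed an adjusted p of 0.05. IGFBP2 and IGFBP4 lie left of 0 with each hairpin, and on the right CTSD with hairpin 2 (0.12, not called) is the 1 point right of 0.

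The genes around IGF2 and CDKN1C on 11p15.5 were mostly lower. Of 25 listed, 17 were in the table and 10 tested, and 0 rose and 8 fell with hairpin 1, 0 rose and 9 fell with hairpin 2, and 0 rose and 6 fell with hairpin 3. Over all tested genes 31.5%, 36.6% and 23.6% were called higher and 31.5%, 37.8% and 24.0% lower. The medians were -0.65, -0.80 and -0.43 on the log2 scale, against 0.0059, -0.017 and 0.0086 over all tested genes. With the length offset 1 rose in each comparison, and the falls numbered 8, 6 and 5, where that fit called 29.4%, 36.6% and 27.4% of all tested genes higher and 30.7%, 37.1% and 28.0% lower. Without the second control library 3 fell with hairpin 3, a count given without the share of all genes called in that fit. CARS1, which encodes a cysteinyl-tRNA synthetase, averaged 82.1 ± 3.07 CPM with hairpin 1, 118 ± 4.08 with hairpin 2 and 93.8 ± 9.83 with hairpin 3, against 438 ± 46.8 CPM in the control, and fell with each, at -2.42, -1.89 and -2.22 (edgeR adjusted p = 8.33e-09, 1.61e-08 and 1.47e-08). PHLDA2, a maternally expressed growth restrainer of the placenta, averaged 31.1 ± 2.40 CPM with hairpin 1, 13.2 ± 1.32 with hairpin 2 and 25.7 ± 5.56 with hairpin 3, against 66.0 ± 13.1 CPM in the control, and fell with each, at -1.08, -2.32 and -1.36 (edgeR adjusted p = 0.000291, 4.67e-07 and 7.06e-05). The length offset made these -0.57, -1.65 and -1.15, each still called. OSBPL5 was called with each hairpin, at -0.28, -0.88 and -0.43, though not with hairpin 1 without the second control library (-0.24), nor in the log2(TPM + 1) fit with hairpin 1 (0.092) or hairpin 3 (-0.25, adjusted p = 0.0787). NAP1L4 was also called with each, at -0.37, -0.24 and -0.19. With the length offset its hairpin 2 value was -0.044 and not called (edgeR adjusted p = 0.317), and the log2(TPM + 1) fit gave 0.016 with hairpin 1 and 0.20 with hairpin 2, on a scale whose all-gene medians were 0.29 and 0.33. Its hairpin 3 call was lost without the second or the third control library or the first hairpin 3 library, at -0.18 to -0.14. It was also lost in the fit of the 2 groups alone (-0.19) and in the log2(TPM + 1) fit (-0.030).

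Beside PEG10 and SGCE on 7q21, 5 of 13 listed genes were tested, and 2 rose and 1 fell with hairpin 1, 2 rose and 0 fell with hairpin 2, and 3 rose and 0 fell with hairpin 3. The shares of all tested genes were 31.5%, 36.6% and 23.6% called higher, and 31.5%, 37.8% and 24.0% called lower. CASD1, a sialic acid acetyltransferase, rose with each hairpin (0.88, 0.71 and 0.64; edgeR adjusted p = 0.00192, 0.00444 and 0.0159), so the gene on the far side of SGCE was higher in the hairpin 2 libraries in which PEG10 was low. Its hairpin 3 call was lost without the second or the third control library or the first hairpin 3 library, at 0.42 to 0.57, and in the fit of the 2 groups alone (0.64). PPP1R9A, a long transcript, was at 0.63 with hairpin 1 and 1.31 with hairpin 2, both called, and at -0.051 and 0.44 with the length offset. The hairpin 1 call was lost without the second or the third library of the control or of hairpin 1, at 0.48 to 0.63. PON3 rose with hairpin 3 (0.85, edgeR adjusted p = 0.000884), as did BET1 (0.31, edgeR adjusted p = 0.00970). The BET1 call was lost in the fit of the 2 groups alone (edgeR adjusted p = 0.0657). PON2 fell with hairpin 1 by 0.17, a call lost in 12 of 20 alternatives. Among them were those without any 1 hairpin 1 library or without the first or the second control library (-0.18 to -0.14). With the length offset PON2 was at 0.16. Beside MEST on 7q32, 4 of 9 listed genes were tested. Of these CPA4, a carboxypeptidase gene, rose with hairpin 1 (0.54, edgeR adjusted p = 0.000535) and fell with hairpin 2 (-1.09, edgeR adjusted p = 1.58e-06) and hairpin 3 (-0.46, edgeR adjusted p = 0.00242). CEP41 passed with hairpin 1 (0.29; 0.086 with the length offset), a call lost without the second or the third control library or the second hairpin 1 library, at 0.24 to 0.25, and it rose with hairpin 3 (0.52). KLF14 fell with hairpin 2 (-0.45, edgeR adjusted p = 0.0344), a call lost in 7 of 20 alternatives. These were the fits without the second or the third library of the control or of hairpin 2 (-0.47 to -0.32), DESeq2 (-0.45), the 2 groups alone (-0.46) and log2(TPM + 1) (-0.014).

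A list of 67 further genes, called other imprinted genes here and below, had 46 in the table and 29 tested. Some of them are also among the neighbours above. How firmly each is known to be imprinted in human was not checked, AXL, DHCR7 and TP73 included, so the counts are those of a list. With hairpin 1, 14 rose and 7 fell, with a median log2 fold change of 0.36 against 0.0059 over all tested genes. With hairpin 2, 15 rose and 11 fell, with a median of 0.35 against -0.017, and with hairpin 3, 11 rose and 7 fell, with a median of 0.10 against 0.0086. Across all tested genes the shares called with hairpins 1, 2 and 3 were 31.5%, 36.6% and 23.6% higher, and 31.5%, 37.8% and 24.0% lower. DIRAS3, a paternally expressed Ras-family gene that restrains growth, averaged 49.97 ± 3.42 CPM with hairpin 1, 17.0 ± 0.202 with hairpin 2 and 41.0 ± 3.05 with hairpin 3, against 24.2 ± 0.672 CPM in the control. It rose by 1.04 with hairpin 1 and by 0.76 with hairpin 3 (edgeR adjusted p = 1.32e-06 and 1.57e-05) and fell by 0.51 with hairpin 2 (edgeR adjusted p = 0.000127), where the length offset gave -0.010 with no call. AXL, a receptor tyrosine kinase, fell with each hairpin, at -0.58, -2.01 and -0.84 (edgeR adjusted p = 1.52e-05, 5.22e-10 and 7.56e-07). DHCR7, an enzyme of cholesterol synthesis, rose with each, by 0.85, 0.35 and 0.65 (edgeR adjusted p = 1.59e-06, 0.000441 and 1.22e-05). TP73, which encodes a transcription factor, rose with hairpin 1 (0.55, edgeR adjusted p = 0.000471, though 0.21 and not called with the length offset) and fell with hairpin 2 (-1.27, edgeR adjusted p = 6.52e-07).

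**Figure D4:**
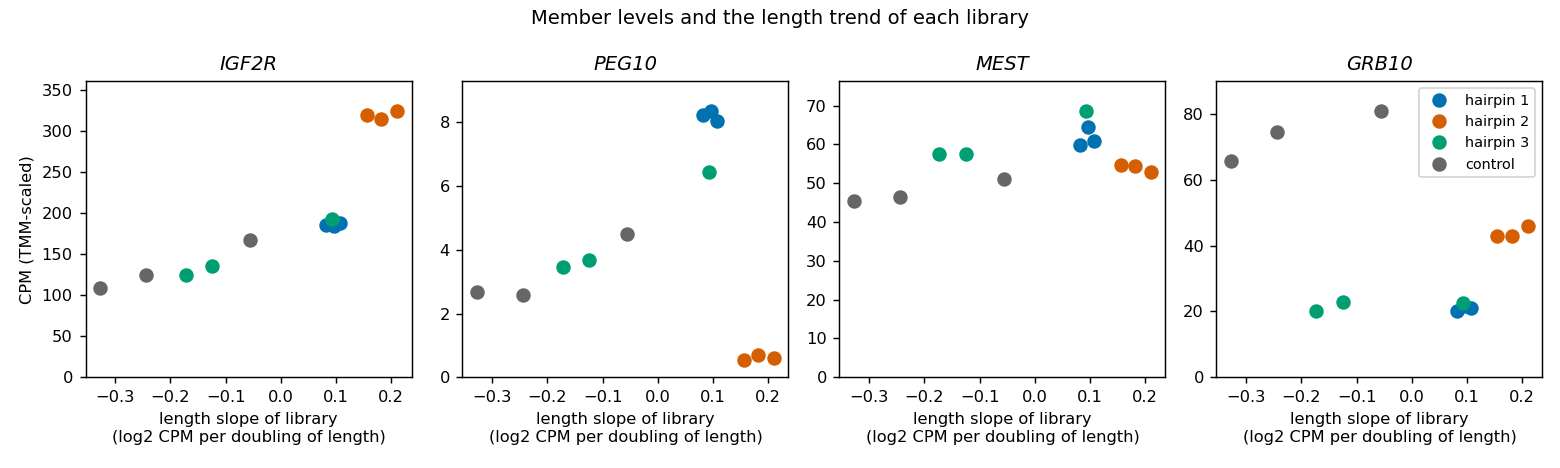
CPM of IGF2R, PEG10, MEST and GRB10 in the 12 libraries (linear axis from 0) against the slope of each library's log2 CPM on log2 transcript length, with colours for hairpin 1, hairpin 2, hairpin 3 and control. IGF2R runs from 109 CPM at the slope of -0.327 up to 325 CPM at 0.210, whereas GRB10 sits between 20.2 and 22.8 CPM in hairpin 1 and hairpin 3 libraries with slopes on both sides of 0.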

How the data were processed

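RNA was polyA-selected, fragmented, reverse transcribed with random primers and sequenced on BGISEQ-500, per the labels' protocols. HISAT, Bowtie2, RSEM, DESeq2 and GRCh38.p13 are named per the submitters' processing notes; the role of each is not given in the sources used here. Expected counts, FPKM and TPM of 17303 genes stand side by side for every library in the table deposited by the authors. The deposited FPKM values were used with the counts to get effective lengths, and the deposited TPM values to set levels between genes. A further 15 columns of group averages were not used. Positions came from GENCODE v29, which matched 17091 identifiers.

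Expected counts were rounded and tested with edgeR (4.0.16, R 4.3.3): expression filter on 4 groups (12868 genes), TMM scaling, 1 quasi-likelihood fit to 12 libraries (8 residual degrees of freedom), two-sided tests, Benjamini-Hochberg adjustment over all tested genes, calls at an adjusted p under 0.05. SE is the absolute log2 change divided by the square root of F, and CPM use TMM-scaled totals. The edgeR, DESeq2 and limma fits were tested on simulated counts with changes put into the hairpin 1 libraries. Those counts held no length trend and no replicate effect, so the length offset and the block were not tested by them. No label states whether libraries of 1 line were grown apart, so p-values measure the spread between libraries, which may be technical.

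Replicate numbers come from the titles. Same-numbered hairpin 3 and control libraries deviated together (r = 0.81, 0.21 and 0.70 over genes), so a fit of these groups with the number as a block was added after seeing the data. Other pairs of groups did not. Other alternatives were RLE scaling, no filter, a filter of 1 CPM, DESeq2 (1.42.0), limma (3.58.1) on log2(TPM + 1), the block in the fit of 12 libraries, the 2 groups alone, a lowess length offset (span 0.5), and leaving out each library.

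The 8 genes and the lists were chosen with earlier results of these data known. Named by rule were the 8 genes, SKA2, IGF1R, INSR, IRS1, IRS2 and IGF2BP1 to IGF2BP3, from each list and hairpin up to 3 genes with the smallest adjusted p and at least 1 CPM on average, and the 5 genes most correlated with IGF2 and with PEG10, of which 1 is not reported here.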

Additional observations from a re-analysis of the deposited data

Results flagged for a closer look

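The effects of hairpins 3 and 1 differed in IGF2 and PEG10, by the test of the difference itself. IGF2 was lower with hairpin 3, at 4.03 to 4.24 CPM, than with hairpin 1, at 6.46 to 6.97 CPM, a log2 fold change of -0.70 (edgeR adjusted p = 0.0255, lower in 3 of 3 libraries). PEG10 was lower with hairpin 3, at 3.48 to 6.44 CPM, than with hairpin 1, at 8.04 to 8.37 CPM, a log2 fold change of -0.86 (edgeR adjusted p = 0.0432, lower in 3 of 3 libraries). The call of IGF2 was lost without any 1 hairpin 1 library and without the second or the third hairpin 3 library, at -0.72 to -0.66. The call of PEG10 was lost in 10 of 20 alternatives, at -0.86 to -0.70: without any 1 hairpin 1 library, any 1 hairpin 2 library, the second control library or the second or the third hairpin 3 library, and with the 2 groups alone.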

How the results depend on the processing

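With hairpins 1 and 3 the calls of GRB10 and MEST, of IGF2 with hairpin 3 and of PEG10 with hairpin 1 held in every alternative run. Low counts limit SGCE and PLAGL1, and IGF2 with hairpin 2. Causes were not tested unless an alternative's own construction shows them. Counts of called genes below stand without the share of all tested genes called in the same fit, except where that share is printed. They show how calls moved between fits and are no comparison with the rest of the genes.

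With the length offset the value was -0.39 for IGF2R with hairpin 1, -0.24 with hairpin 3 and 0.14 for hairpin 3 against hairpin 1. It was -0.22 for IGF2 with hairpin 1 and 0.070 for CDKN1C with hairpin 3. IGF1R gave -0.34 with hairpin 1 and -0.19 with hairpin 3, and INSR -0.24, -0.62 and -0.17 with hairpins 1, 2 and 3. IRS1 gave -0.053 with hairpin 2, IRS2 -0.58 and -0.44 with hairpins 1 and 2, IGF2BP1 -0.42 with hairpin 1 and IGF2BP2 -0.067 with hairpin 2. PON2 gave 0.16 with hairpin 1, PON3 0.30 with hairpin 2, PPP1R9A -0.051 and -0.11 with hairpins 1 and 3, and TP73 -0.034 with hairpin 3. IGF pathway genes called higher numbered 2 with hairpin 1 and 1 with hairpin 2. On 11p15.5 1 gene was higher with each hairpin, also for hairpin 3 with the replicate block. Higher genes numbered 1 beside MEST with hairpin 1 and 4 beside PEG10 with hairpin 2, and 0 beside PEG10 were lower with hairpin 1. Adding the replicate block to the offset for hairpin 3 gave 0.071 for CDKN1C, -0.24 for IGF2R, -0.19 for IGF1R, -0.17 for INSR, -0.11 for PPP1R9A and -0.034 for TP73.

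limma on log2(TPM + 1) moved the median of all genes to 0.29, 0.33 and 0.12 with hairpins 1, 2 and 3. It gave 0.023 for CDKN1C and 0.14 for COPG2 with hairpin 3, -0.14 for GRB10 with hairpin 3 against hairpin 1, and 0.39 for CEP41, 0.027 for IGF2BP1, 0.20 for NAP1L4 and 0.12 for PON3 with hairpin 2. With hairpin 1 it gave 0.22 for IGF2BP2, 0.016 for NAP1L4, 0.092 for OSBPL5 and 0.21 for PON2. Higher with hairpin 2 were 5 IGF pathway genes, 2 on 11p15.5, 2 beside MEST and 4 beside PEG10, with 1 beside MEST lower. With hairpin 1, 4 were higher beside MEST and 4 beside PEG10, and lower were 3 on 11p15.5, 3 other imprinted genes and 0 beside PEG10. With hairpin 3, 3 on 11p15.5 were lower.

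With the 2 groups alone, 3458 of all genes were called with hairpin 3 and 336 for hairpin 3 against hairpin 1, where DESeq2 called 1971 and 1 of the 8 genes was called by the 2 groups alone. PEG10 there was -0.86. With hairpin 3, 0 IGF pathway genes, 1 beside PEG10 and 5 other imprinted genes were higher, and 3 on 11p15.5 and 4 other imprinted genes were lower. Beside PEG10 0 were lower with hairpin 1, and beside MEST 1 was lower with hairpin 2, as with DESeq2. The replicate block on these 2 groups called 5 of the 6 of these genes that it tested with hairpin 3 (IGF2R 0.18 and PEG10 0.48 added) and 5 IGF pathway genes higher and 5 lower, where it called 35.9% of 12492 genes higher and 35.5% lower. The replicate block in the fit of 12 libraries called 0 beside PEG10 lower with hairpin 1, as did the fit with no filter, and changed no call of the 8 genes. With no filter MEST was 0.0021 for hairpin 3 against hairpin 1 and IRS2 -0.0047 with hairpin 1.

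Leaving out 1 library gave 239 to 5267 calls over all genes for hairpin 3 against hairpin 1, lowest without the second hairpin 1 and highest without the first hairpin 3 library. Of the 8 genes 0 to 3 were called there, 3 to 5 with hairpin 3 and 3 to 5 with hairpin 1. IGF pathway genes called higher numbered 2 to 5 with hairpin 2 and 1 to 3 with hairpin 3, and lower 3 to 5 with hairpin 3. On 11p15.5 3 to 7 were lower with hairpin 3, and 6 to 11 other imprinted genes were higher. Beside MEST 1 to 3 were higher with hairpin 1 and 1 to 2 lower with hairpin 2, and beside PEG10 1 to 2 were higher and 0 to 1 lower with hairpin 1. Log2 values crossed 0 for BET1 (-0.024 to 0.068), CDKN1C (-0.016 to 0.19), IGF2 (-0.074 to 0.15), IGF2BP1 (-0.28 to 0.44) and IRS2 (-0.13 to 0.22) with hairpin 1, CEP41 (-0.11 to 0.031) and IGF2BP2 (-0.066 to 0.15) with hairpin 2, and CDKN1C (-0.22 to 0.026), COPG2 (-0.041 to 0.0083), IGF2R (-0.036 to 0.38), PLAGL1 (-0.18 to 0.58) and PPP1R9A (-0.081 to 0.50) with hairpin 3. MEST ran from -0.084 to 0.033 for hairpin 3 against hairpin 1.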
